A study of Mus musculus with 6 samples.

Results

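Cluster 12 of the DES epithelial cells held 136 of the 4608 cells that the authors placed in 16 clusters numbered 0 to 15 (2.95%, 95% exact Clopper-Pearson interval 2.48% to 3.48%), out of 48699 cells with counts in the series. Its members were the cells that the deposited annotation assigns to that cluster. All 136 had counts, and the other 4472 DES epithelial cells were the cells they were compared with. The annotation lists 2 more DES epithelial cells, which were not analysed here.

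The uteri came from CD-1 mice, an outbred stock, at 12 months of age. DES mice had received 1 mg/kg/day of diethylstilbestrol, a synthetic estrogen, by injection on days 1 to 5 after birth, and control (CO) mice had received the corn oil vehicle. The DES cells were pooled from 4 mice into 1 droplet library and the CO cells from 2 mice into another, and the mouse that each cell came from is not given. In addition, 2 CO and 2 DES sections, each from 1 mouse, were measured on Visium slides, where a spot can hold several cells of different types. Per the paper, CO section 2 had a large fold, and clusters were hard to identify in DES section 2. The paper therefore based most of its section analyses on 1 section per group. A pathologist had examined the DES sections for adenocarcinoma, and areas of interest were cored from the chosen blocks.

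The uterine lining is normally a single layer of columnar luminal epithelium that folds into glands. Keratin 5, keratin 14 and p63 mark basal cells, which the normal mouse uterus largely lacks and which stratified epithelia such as the vagina and skin rest on. Most epithelial cells carry MHC class I, whereas MHC class II, which shows peptides to CD4+ T cells, is made mainly by professional antigen-presenting cells and is induced in epithelium by interferon-gamma through the coactivator CIITA.

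Cluster 12 was epithelial by its markers. Epcam, an epithelial adhesion molecule, was at 744 CPM, the unique molecular identifiers (UMIs) of a gene per 1000000 UMIs of the summed cells (95% exact Poisson interval 718 to 771), within the range of 724 to 883 of the other 15 clusters. Krt8 was at 1047 and Krt18 at 754 CPM, against 862 and 677 in the other clusters together. All 10 genes of a general epithelial list passed the minimum of 50 CPM, none differed by 2-fold, and their median log2 ratio was 0.19, beside -0.05 over all genes.

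Markers of other cell types were summed by list. The 6 lymphocyte markers had no UMI among the 4154033 of the cluster, which allows a summed level of up to 0.888 CPM. The neutrophil list summed to 0.963, the plasma cell list to 0.481, the endothelial list to 1.69 and the muscle list to 1.69 CPM. The stromal list summed to 155 (98.3 to 246 in the other clusters), of which Dcn made up 102, and Dpt and Pdgfra were at 0. The myeloid list summed to 66.7 (47.3 to 90.6), of which Cd68 made up 54.9, with Lyz2 at 8.43, the lowest of the 16 clusters, and Itgax at 0. The red cell list summed to 655 (315 to 1070), close to the level of Epcam. The mesothelial list summed to 39.5, above the 17.7 to 35.8 of the other clusters, and 25.5 of it was Upk3b, with Msln at 5.06, the lowest of the 16 clusters. Their part in the results, and that of free RNA, was not tested.

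A cell of the cluster held a median of 23668 UMIs (6261 to 135542) and 4949 genes, beside 24670 UMIs and 4968.5 genes in the other clusters. Mitochondrial genes took 11.7% of the UMIs, beside 12.3%. Of the 180 cell barcodes present in both libraries, none was in the cluster, and Scrublet marked none of its cells as doublets (3 of all 4608). When the authors clustered CO and DES cells together, 107 of the 136 cells (78.7%) fell in integrated cluster 2 and 17 in integrated cluster 6. Integrated cluster 2 held 793 cells with counts and no CO cell, and 451 of them were from DES cluster 0.

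Because the authors clustered the cells by these very counts, levels in cluster 12 against the other clusters are given as a description, with no test. With 1 DES library there is no replicate, and intervals cover counting error only. Of the 2742 genes that reached 50 CPM in cluster 12 or in the rest, 5 were at 2-fold or more higher in cluster 12 (0.182%) and 41 at 2-fold or more lower (1.50%). Compared in the same way with their own rest, the other clusters had between 2 and 101 genes higher, and only cluster 10 had fewer than the 5 of cluster 12, a count that cluster 3 shared. A gene that reached the minimum in 1 of these sets alone, as Psca did in cluster 12 and H2-Aa in the rest, had to differ. Cluster 12 was the highest of the 16 clusters in 53 genes (1.93%) and the lowest in 181 (6.60%).

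**Figure D1:**
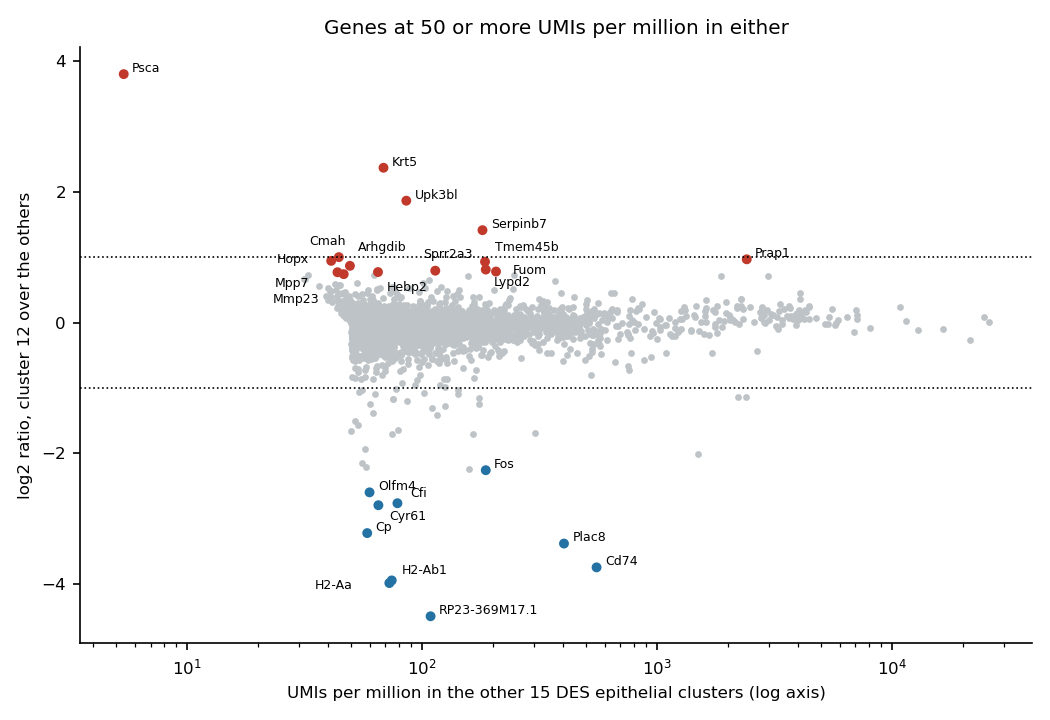
Log2 ratio of summed CPM, cluster 12 over the other 15 DES epithelial clusters (y axis), against the level in those other clusters (x axis, log scale) for 2742 genes, each a point. The 15 largest ratios are red and the 10 smallest blue, dotted lines mark 2-fold, and Psca at 3.81 and RP23-369M17.1 at -4.50 lie farthest from 0.

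The gene that marked the cluster most was Psca (chr15:74714839-74717069 on GRCm38, plus strand, protein coding), which encodes prostate stem cell antigen, a small surface protein of the Ly6 family. It was at 75.3 CPM in cluster 12 and 5.38 in the other clusters, a ratio of 13.99 (12.3 to 15.9). Cluster 13 came next at 25.7, then cluster 0 at 14.8 and cluster 4 at 10.2, and clusters 5 and 7 were lowest with 1 UMI each. The 136 cells held 313 of the 1174 Psca UMIs in DES epithelial clusters (26.7%), while holding 2.53% of all UMIs. Without thinning, 89 of the 136 cells (65.4%) had a Psca UMI, and 10.8% of the other cells did. After thinning to 3000 UMIs the shares were 13.2% (8.04% to 20.1%) and 1.79% (1.42% to 2.22%), and the share in DES mesothelial cells, where Psca, Krt5, Upk3bl and Serpinb7 were between 0.124 and 7.52 CPM, was 0.0264% of 3782 cells (0.209% unthinned, median 12329 UMIs).

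Krt5 (chr15:101707070-101712898, minus strand), the keratin of basal layers, was at 355 CPM against 68.6, a ratio of 5.18 (4.90 to 5.47). Cluster 5 was above it at 645 and cluster 14 just below at 330, and no other cluster passed 85.7. A Krt5 UMI was seen in 67 of the 136 thinned cells (49.3%, 40.6% to 58.0%), in 10.6% of the other cells and in 2.27% of mesothelial cells, and without thinning in 82.4%, 30.9% and 9.41%. Levels varied among the cells, with a median of 2.02, an upper quartile of 5.25 and a highest value of 20.2 UMIs per 10000.

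The authors took cells with both Krt14 and Trp63 out of the DES epithelial cells before they formed these clusters, so that low levels of the pair are in part fixed by that choice and are given as values only. Krt14, the usual partner of Krt5, was at 5.30 CPM, below the 8.68 of the other clusters, and Trp63, the gene of p63, had 4 UMIs in all (0.963). Of the 67 thinned cells with Krt5, 1 had Krt14 and 1 had Trp63. In the cells that the authors call basal, which were kept apart by these genes, integrated cluster 8 had 1808 CPM of Krt5, 3858 of Krt14 and 203 of Trp63, and integrated cluster 11 had 1611, 3047 and 302. Of the 13 genes in a basal and squamous list, 2 passed the minimum, Krt5 and Sprr1a, a cornified envelope precursor at 39.7 against 52.7. Sprr1a passed through the other clusters alone and so had to be lower. Krt4, Krt6a, Dsg3, Ivl and Sprr1b had no UMI in the cluster.

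Upk3bl, an uroplakin-like membrane protein, was at 313 CPM against 85.8 (ratio 3.65, 3.44 to 3.86). This was the highest of the 16 clusters, ahead of cluster 1 at 264 and cluster 5 at 136. Thinned cells carried it in 52.9% (44.2% to 61.6%) and the others in 18.8%, beside 0.740% of mesothelial cells, and unthinned the shares were 94.9%, 62.1% and 3.94%. Its relative Upk3b starts and ends before it on the same strand of chromosome 5, 8004 bases away (Upk3bl at chr5:136054492-136064326), and was also highest in cluster 12, at 25.5 against 11.7. It lay below the minimum, and reads of such related neighbours may have been split between them.

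Serpinb7, a serine protease inhibitor of clade B, was at 483 CPM against 181 (ratio 2.67, 2.55 to 2.79). Cluster 14 was higher at 619, and cluster 7 at 442 and cluster 4 at 405 were close below. It was among the most widely seen of the leading genes, in 70.6% of thinned cells (62.2% to 78.1%) against 27.4% of the others and 2.27% of mesothelial cells, and in 97.1%, 59.3% and 10.9% without thinning. Cmah, which makes the sialic acid Neu5Gc, completed the genes at 2-fold or more with 88.8 against 44.3, a ratio of 2.004 (1.80 to 2.23), below clusters 14 (166) and 5 (129). Cmah passed the minimum through cluster 12 alone and so had to be higher.

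**Figure D2:**
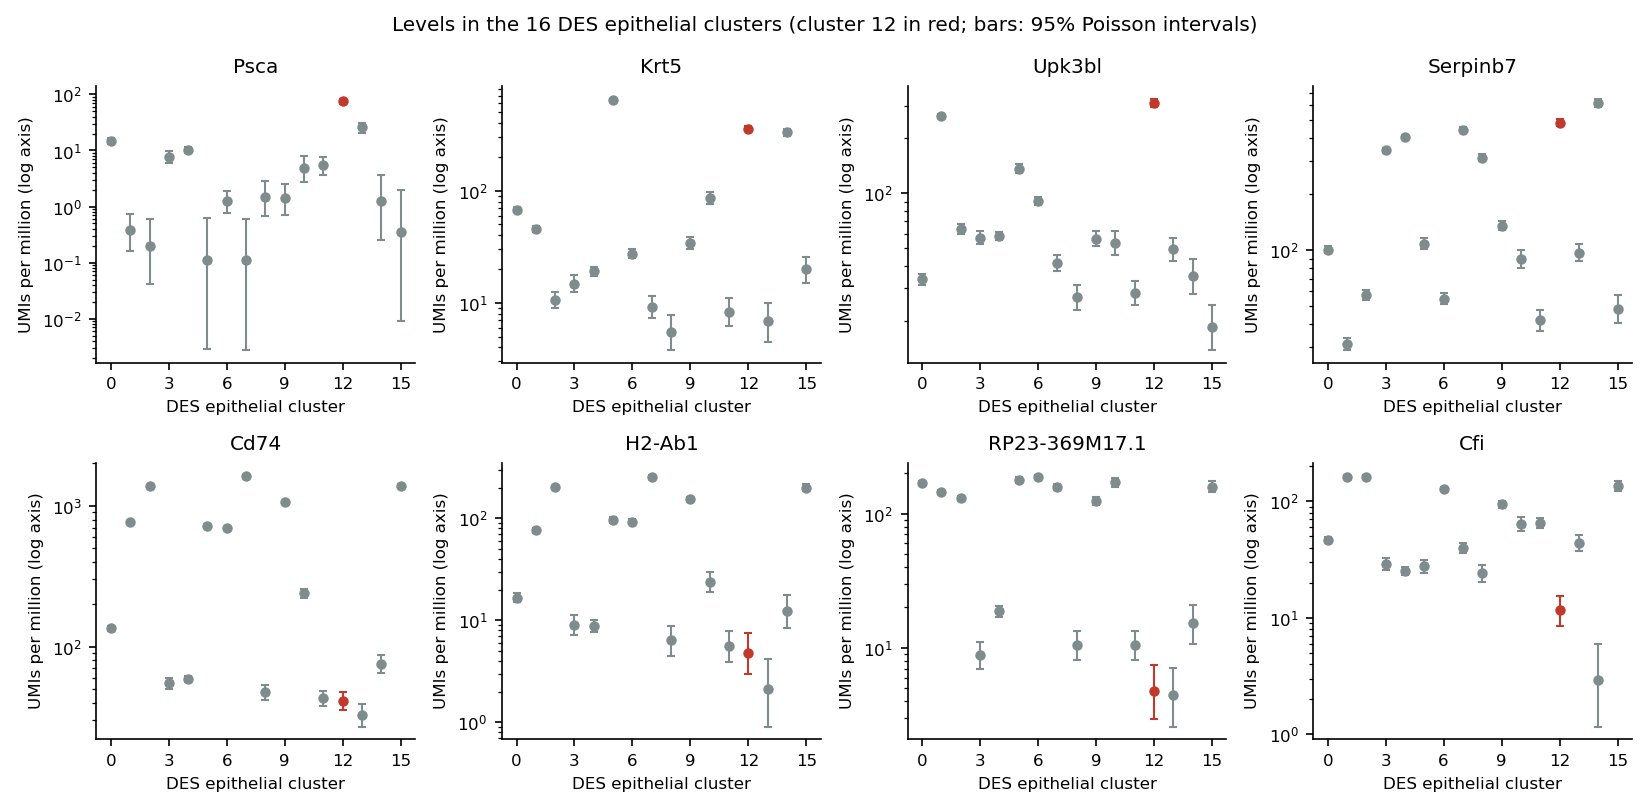
CPM (y axes, log scale) in the 16 DES epithelial clusters (x axes) for 8 genes, with 95% exact Poisson intervals. Cluster 12 (red) is the highest in Psca at 75.3 and in Upk3bl at 313, and lies among the low clusters in Cd74 at 41.2, H2-Ab1 at 4.81, RP23-369M17.1 at 4.81 and Cfi at 11.6.

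The next 10 genes by ratio were higher by less than 2-fold. Prap1, a secreted acidic protein of glandular epithelium, was the most abundant of them at 4724 CPM against 2413 (ratio 1.96, 1.93 to 1.99). Every one of the 136 cells had a Prap1 UMI, and 135 still did at 3000 UMIs (99.3%), beside 65.0% of the other cells and 19.5% of mesothelial cells (57.1% unthinned). Clusters 5 (8956), 1 (6676) and 15 (4806) were above cluster 12, and cluster 8 was lowest at 138.

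Tmem45b (354 CPM), a transmembrane protein, Fuom (356), the mutarotase that feeds fucose into glycan synthesis, Hebp2 (111), a heme-binding protein, and Mpp7 (74.6), a scaffold of cell polarity complexes, were each highest in cluster 12, with ratios of 1.91, 1.72, 1.71 and 1.71. For Fuom the runner-up was cluster 7 at 302, and for Hebp2 cluster 0 at 86.5. Hopx, an atypical homeodomain protein, was second to cluster 5 (79.2 against 98.6), and Mmp23, a metalloproteinase, second to cluster 1 (77.8 against 110). Arhgdib, a gene common in blood cells, was second to cluster 7 (90.3 against 111), and DES mesothelial cells had 119 CPM of it. Mpp7, Hopx, Mmp23 and Arhgdib passed the minimum through cluster 12 alone and so had to be higher.

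Lypd2, another Ly6 family member, was at 328 CPM, below clusters 14 (840), 3 (379) and 4 (349). Sprr2a3, a small proline-rich protein of the cornified envelope, was at 198, below cluster 5 at 213 and far below cluster 15 at 907, and 57 of the 136 cells had none while the highest had 23.3 UMIs per 10000. It has close copies, so reads may have been divided among them. In all, cluster 12 was first of the 16 clusters in 6 of the 15 leading genes, second in 5, and lower in 4. The values just inside and outside the choice were 1.67 for Mmp23 and 1.66 for Tmod3.

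Pairs of leading genes were counted in the same thinned cells. Of the 18 thinned cells with Psca, 16 also had Krt5 and 10 had Upk3bl. Krt5 and Upk3bl were seen together in 40 cells, one without the other in 27 and 32, and neither in 37. In the other clusters 17 of 4423 thinned cells (0.384%) had both Psca and Krt5, beside 11.8% in cluster 12. A missing UMI at this depth does not show that a gene is off.

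The 4 genes with the largest ratios were compared across the integrated clusters that the cells fell in. In the 107 cells of integrated cluster 2, Psca was at 76.3, Krt5 at 344, Upk3bl at 329 and Serpinb7 at 502 CPM. In the 17 cells of integrated cluster 6 the same genes were at 56.2, 264, 197 and 427, and in the 12 remaining cells at 82.4, 496, 291 and 398. The 685 other DES cells of integrated cluster 2 had Psca at 15.05, Krt5 at 75.7, Upk3bl at 58.1 and Serpinb7 at 162. The 4 genes were chosen against a rest that includes these 685 cells, so the choice itself favoured a gap. Of the other leading genes Mmp23 was at 30.9 in the 17 cells of integrated cluster 6 (11 UMIs), below the 46.5 of the other DES clusters.

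**Figure D3:**
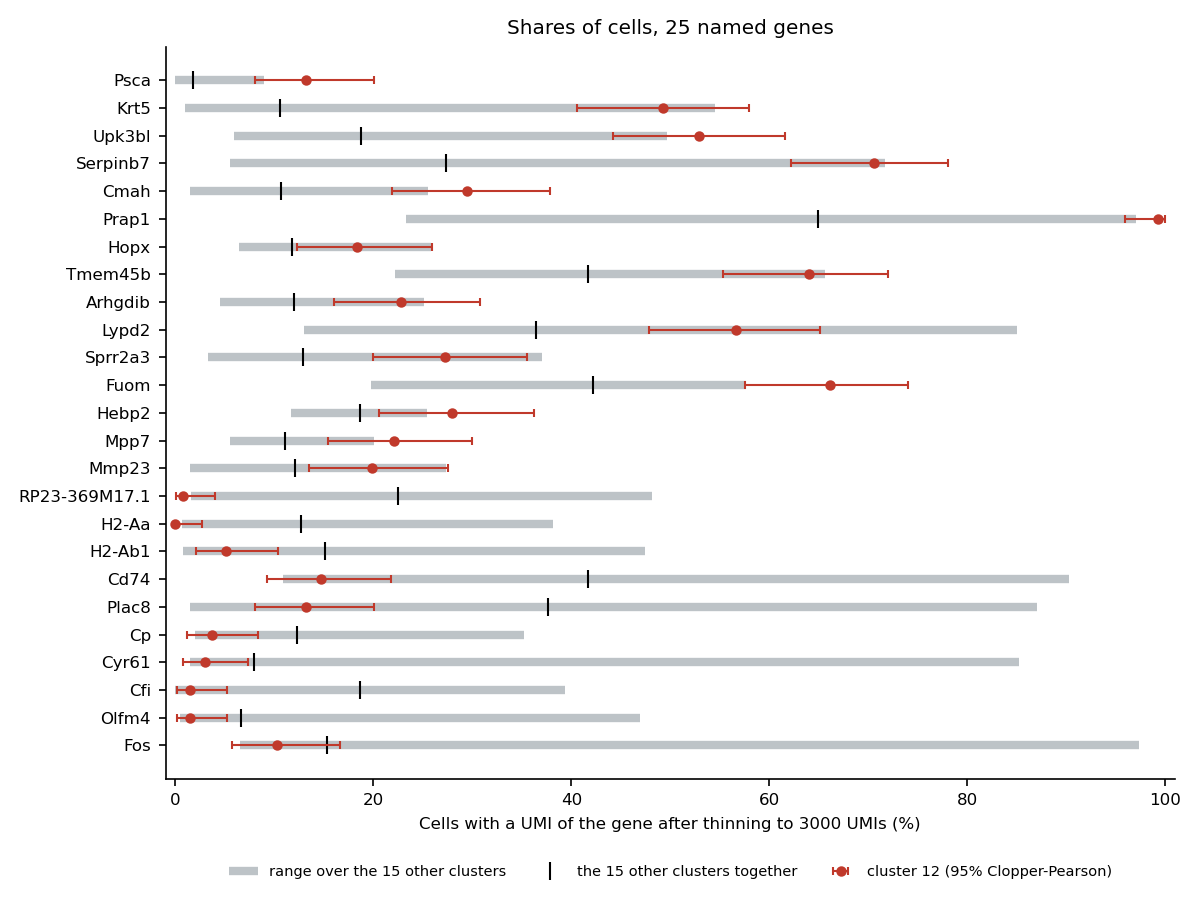
Percent of cells with a UMI of each of the 25 named genes (x axis) after thinning every cell to 3000 UMIs, for cluster 12 (red, 95% exact Clopper-Pearson intervals), the other 15 clusters together (black) and their range (grey). Serpinb7 reached 70.6% and Krt5 49.3% in cluster 12, against 27.4% and 10.6% in the others, and H2-Aa was seen in none of the 136 cells.

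Among the genes lower in cluster 12 were those of MHC class II. H2-Aa and H2-Ab1, the alpha and beta chains of the I-A molecule, and Cd74, the invariant chain that escorts it, were the members above the minimum, and all 3 of 3 were at 2-fold or more lower, beside 1.50% of all genes. Their median log2 ratio was -3.95, beside -0.05 over all genes, but all 3 passed through the other clusters alone and so had to differ. The 7 members of the list, with no minimum, summed to 72.5 CPM against 792, in a range of 62.8 to 2384 over the other clusters. H2-Aa was at 4.57 CPM against 72.7 (ratio 0.0629, 0.0379 to 0.0983), H2-Ab1 at 4.81 against 74.4 (0.0647, 0.0395 to 0.1000) and Cd74 at 41.2 against 554 (0.0743, 0.0636 to 0.0863). The members below the minimum were also low, with H2-Eb1 at 2.41 against 44.1, H2-DMa at 3.37 against 17.5, H2-DMb1 at 14.7 against 24.9 and Ciita, the gene of the coactivator, at 1.44 against 4.09.

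Class II was seen in few thinned cells. No thinned cell had H2-Aa, which allows a share of up to 2.68% by the exact interval, while 12.7% of the other cells had it, and 20 had Cd74 (14.7%, 9.22% to 21.8%) against 41.7%. Without thinning 9.56% and 36.7% had H2-Aa, and 47.8% and 71.4% had Cd74. In thinned DES mesothelial cells, which had 42.9 CPM of H2-Aa and 115 of Cd74, the shares were 11.7% and 25.8% (38.3% and 59.7% unthinned), and so they set no background for these genes. DES lymphocytes had 3919 CPM of Cd74 and DES myeloid cells 5354.

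Low class II was not particular to cluster 12. Cd74 lay between 32.6 and 75.5 CPM in clusters 13, 12, 11, 8, 3, 4 and 14, at 135 in cluster 0, at 240 in cluster 10 and between 699 and 1628 in clusters 6, 5, 1, 9, 15, 2 and 7. The Cd74 interval of cluster 12 (35.2 to 47.8) overlapped those of clusters 8, 11 and 13. The size of the ratio moved with the clusters it was taken against. Without clusters 2, 7, 9 and 15, which had the most Cd74, the median log2 ratio of the list was -2.99, and against the median of the other 15 clusters it was -2.54.

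Class I was closer to the other clusters. Of 5 members above the minimum none differed by 2-fold, and their median log2 ratio was -0.17. H2-K1, a class I heavy chain, was at 440 against 665 CPM, H2-D1 at 472 against 532, and B2m, the light chain, at 300.2 against 525. Psmb8, an immunoproteasome subunit, was at 180 against 175. Psmb9, at 48.1 against 51.3, passed through the other clusters alone and so had to be lower. Among interferon-stimulated genes 3 of 18 passed the minimum: Ifi27 at 142 against 152 CPM, Bst2 at 48.1 against 80.9 and Rtp4 at 48.6 against 53.5. Bst2 and Rtp4 passed through the other clusters alone and so had to be lower. With no minimum the 18 genes summed to 417 CPM against 502, in a range of 249 to 762 over the other clusters.

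The 2 class II promoters held in the reference table (RefSeq, GRCm38.p6) are shown because these genes are low together, and such promoters are known to carry an X box and a Y box that the RFX and NF-Y complexes bind. Capitals mark GCAAC, a part of the X box, and CTGATTGG, a form of the Y box, with the stretch read 5′ to 3′ on the gene's strand.
H2-Aa, chr17:34287857-34287914, minus strand: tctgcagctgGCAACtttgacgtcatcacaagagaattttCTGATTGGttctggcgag
H2-Eb1, chr17:34305766-34305822, plus strand: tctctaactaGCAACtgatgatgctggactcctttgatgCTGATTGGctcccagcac
The motifs were 25 and 24 bases apart, and CTGATTGG ended 43 and 54 bases before the start. On either strand, GCAAC was in 35.2% of the 32851 promoters of 300 bases in the table, CTGATTGG in 4.10% and both in 1.58%. A match is a description of the letters and says nothing about binding in these cells. H2-Ab1 and Cd74 had no entry.

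The smallest ratio of all belonged to RP23-369M17.1, a transcript named after a genomic clone, which had no match in GENCODE M21. It had 20 UMIs in cluster 12 (4.81 CPM) against 109 CPM in the other clusters, a ratio of 0.0442 (0.0270 to 0.0683). It passed the minimum through the other clusters alone and so had to be lower. The 16 clusters split into 9 between 124 and 187 CPM and 7 between 4.47 and 18.7, with none in between, and cluster 13 was the only one below cluster 12. The 7 low clusters were the same 7 that had the least Cd74. The library pools 4 outbred mice and no map from cells to mice was used here, so that for this gene, as for the other ratios of cluster 12, a difference between clusters and one between mice cannot be told apart. One thinned cell of 136 had it (0.735%), against 22.5% of the other cells, and unthinned it was in 10.3% and 63.1%. DES mesothelial cells had 83.1 CPM of it and set no background. Within integrated cluster 2 the 107 cells of cluster 12 had 5.45 CPM and the 685 other DES cells 150.

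Plac8, a small cysteine-rich protein, was at 38.5 against 402 CPM (ratio 0.0957, 0.0814 to 0.112), with cluster 15 highest at 2005 and cluster 14 lowest at 15.3. Cp, the ferroxidase ceruloplasmin, was at 6.26 against 58.5 (0.107), above cluster 14 alone (4.95). Cfi, complement factor I, was at 11.6 against 78.7 (0.147, 0.108 to 0.195), again above cluster 14 alone, and was in 1.47% of thinned cells against 18.7% (25.7% against 62.9% unthinned), beside 1.19% of mesothelial cells (4.64% unthinned). Against the median of the other 15 clusters the log2 ratios of Plac8, Cp and Cfi were -2.81, -2.66 and -2.01. Each of these genes passed the minimum through the other clusters alone and so had to be lower.

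For Olfm4, Cyr61 and Fos, 1 other cluster held much of the difference. Each of them passed the minimum through the other clusters alone and so had to be lower. Olfm4, a secreted glycoprotein of crypts and glands, was at 9.87 CPM against 59.9, with 685 in cluster 5. Cluster 12 had rank 9 of the 16 in it, and its log2 ratio of -2.60 was -0.25 against the median of the other 15 clusters. Cyr61 (now Ccn1), a matricellular protein, was at 9.39 against 65.3 and Fos, an AP-1 subunit, at 39.0 against 187, with 935 and 2519 in cluster 9. Without cluster 9 their log2 ratios went from -2.80 to -1.17 and from -2.26 to -0.81. In the same way 5 of 10 immediate early genes above the minimum were at 2-fold or more lower, beside 1.50% of all genes, and none higher. Of these 5, all but Jun passed the minimum through the other clusters alone and so had to differ. The median log2 ratio of -0.77 was -0.04 without cluster 9. Ier3, at 22.9, and Klf6, at 15.9, were nevertheless the lowest of the 16 clusters. The values on either side of the limit were 0.209 for Fos and 0.210 for Lypd8.

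Of the 28 gene lists, 25 had a member above the minimum. Ribosomal protein genes were above 1 in 71 of 80 (median log2 ratio 0.13), nuclear oxidative phosphorylation genes in 11 of 20 (0.00) and mitochondrially encoded genes in 5 of 12 (-0.08), beside 37.6% of all 2742 genes. For glycolysis and hypoxia the median was 0.05, for the unfolded protein response -0.05, for heat shock -0.17 and for the Wnt pathway -0.17. None of their members above the minimum differed by 2-fold. Members below the minimum are not covered by this, such as Hspa1a, a heat shock gene at 11.8 against 30.6 CPM. Of the Wnt members above it, Fzd6, Fzd10 and Ccnd2 passed through the other clusters alone and so had to be below 1. Wnt4 was at 123 against 98.1 CPM and Ctnnb1, the gene of beta-catenin, at 430 against 495.

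Estrogen-responsive genes were below 1 in 8 of 8 members above the minimum, with a median log2 ratio of -0.45, where 62.4% of all 2742 genes were below 1. With no minimum the list summed to 5661 CPM, rank 11 of the 16 clusters, in a range of 3174 to 15953 over the others. Ltf, the gene of lactoferrin, was the one at 2-fold, at 1085 against 2387 CPM, inside the range of 588 to 4998 of the other clusters. Pgr, the progesterone receptor, was at 60.7 against 97.5, while Esr1, the estrogen receptor, was at 211 against 218. C3, complement component 3, was at 654 against 941. Inflammatory genes above the minimum were below 1 in 4 of 5 (median -0.47), among them Il33, an alarmin, at 61.9 against 120. Nfkbiz was also among them at 32.0 against 57.2, the lowest of the clusters. It passed the minimum through the other clusters alone and so had to be below 1. Of 12 mucin and trefoil genes, the 4 above the minimum were all below 1 (median -0.38), from Muc1 at 255 against 264 to Pigr at 156 against 213. Of the glutathione genes above the minimum, 7 of 9 were below 1 (median -0.27). Gsta4 at 167 against 107 and Gsto1 at 1620 against 1615 were above 1. These 3 counts, too, stand beside 62.4% of all genes below 1.

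Lists of gland, luminal, cancer and stem cell genes did not all go the same way. The 6 mature gland genes were under the minimum and summed to 10.1 CPM, less than in any other cluster (16.01 to 123), with Foxa2, a gland transcription factor, at 6.02 against 16.4. Of 4 developing gland genes above the minimum 2 were above 1, Prap1 and Napsa. Lists that the study chose on these samples are no independent evidence of direction. Of its DES cancer cell genes, 4 of 4 above the minimum were below 1 with a median of -0.19, beside 62.4% of all genes below 1. Olfm4 was the one at 2-fold, but it passed through the other clusters alone and so had to be lower. Lrrc26 led the luminal list at 176 against 121 (2 of 3 above 1), and of the stem cell list Wnt7a alone passed, at 62.3 against 62.6, with Lgr5 at 3 UMIs and Axin2 at 26.

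Of the cell cycle lists, the 20 S phase genes, with no minimum, summed to 571 CPM against 492, inside the range of 213 to 1019 of the other clusters. Of the 4 above the minimum, the 3 with a ratio above 1 (Mcm6, Mcm7 and Rfc2) passed through cluster 12 alone and so had to be above 1. Mcm6, a replicative helicase subunit, was at 66.9 against 44.9 and highest in cluster 4 (96.3). The 20 G2 and M phase genes summed to 183 CPM against 423, with cluster 6 at 1673, and Mki67, the proliferation antigen, had 9 UMIs in the whole cluster. Hmgb2 was the member above the minimum, at 132 against 192.

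**Figure D4:**
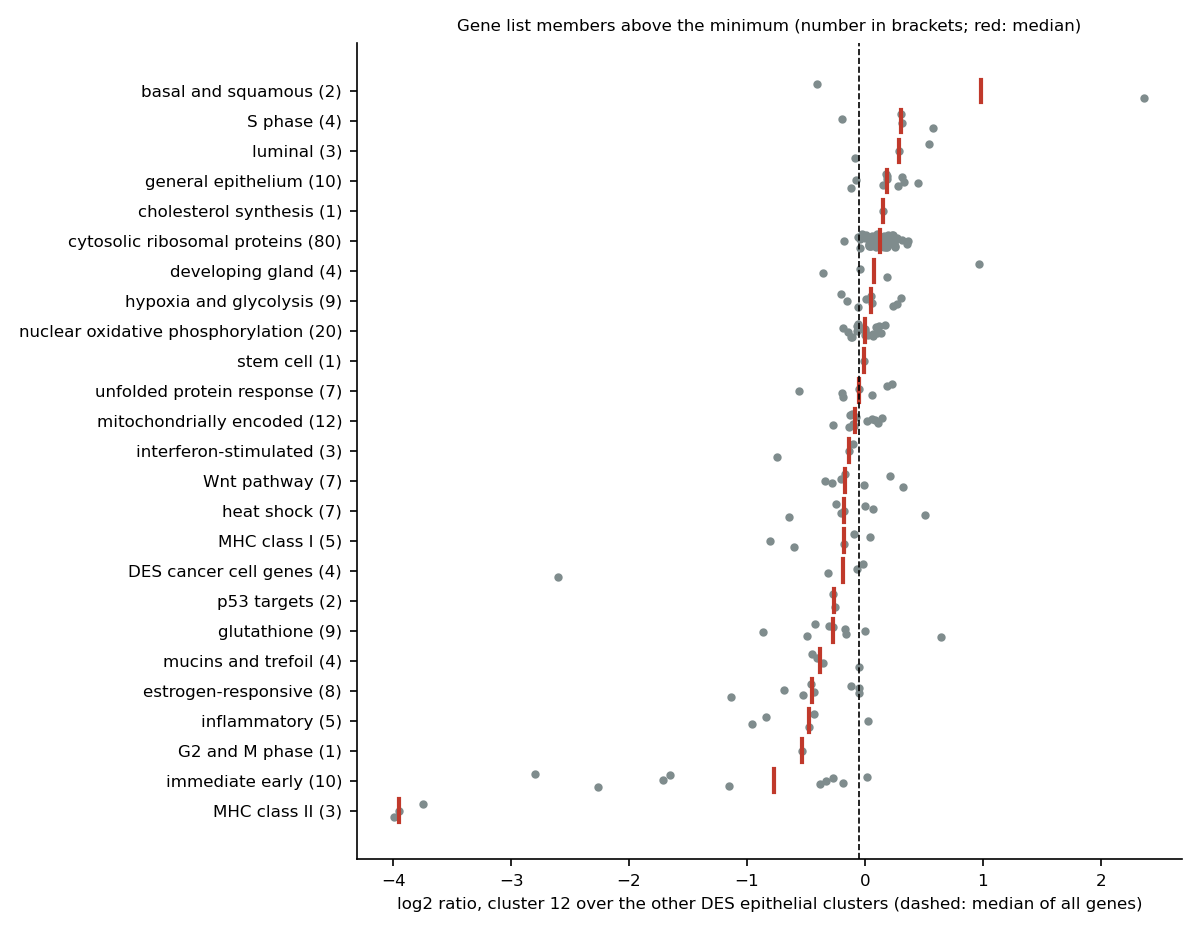
Log2 ratio of CPM, cluster 12 over the other DES epithelial clusters (x axis), of each list member above the minimum (grey points) and the list median (red) for 25 gene lists (y axis, members in brackets). The dashed line is the median over all genes at -0.05, and MHC class II at -3.95 and immediate early genes at -0.77 lie lowest.

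By the rank correlation of log2 levels over 3701 genes, the most similar clusters were 3 (Spearman correlation 0.961), 0 (0.955) and 4 (0.948), and the least similar was 15 (0.874). These points are genes that share libraries and depth, so no p is given. Against cluster 3, of 2668 genes 22 were at 2-fold or more higher in cluster 12 (0.825%) and 10 lower (0.375%). Krt5 was 24.0 times higher (20.1 to 28.8), Psca 9.87, Prap1 9.73 and Upk3bl 5.49 times, while Serpinb7 was 1.41 times higher and Lypd2 lower (0.866). Cd74 (0.752), Plac8 (0.967) and Fos (1.06) were within 2-fold of cluster 3, as was RP23-369M17.1 (0.544, 0.315 to 0.897).

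Against cluster 4, Krt5 was 18.7 times, Prap1 8.68 times and Psca 7.39 times higher, and Serpinb7 1.19 times. There 23 of 2719 genes were higher and 23 lower at 2-fold (0.846% each). Against cluster 0, Upk3bl was 9.32 times, Krt5 5.25 times, Psca 5.08 times and Serpinb7 4.81 times higher, Prap1 1.88 times, and RP23-369M17.1 was at 0.0287 (0.0175 to 0.0444) and Cd74 at 0.305 of the level in cluster 0. Of 2771 genes 11 were higher and 38 lower (0.397% and 1.37%). The leading and lowest genes were chosen against a rest that includes these clusters, so nothing is read from their counts. Of the 15 leading genes, 14, 15 and 14 were above 1 against clusters 3, 0 and 4, and 9, 8 and 8 at 2-fold. Of the 10 lowest genes, 2, 6 and 3 were at 2-fold or more lower and 2, 3 and 2 were above 1, among them Olfm4 at 4.31 times the level of cluster 4. Psca, Krt5 and Upk3bl were above 5-fold against all 3.

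In the CO library, 2583 epithelial cells in 15 clusters (78801159 UMIs) were set beside cluster 12. With 1 library per treatment there is no test, and treatment and library cannot be told apart. Krt5 had 24 UMIs in these CO cells (0.305 CPM) and Psca 29 (0.368), and no CO cluster passed 0.705 or 1.43, against 355 and 75.3 in cluster 12. Upk3bl was at 27.7 (up to 74.6 in a CO cluster), Serpinb7 at 39.7 (up to 408) and Lypd2 at 5.42 (up to 24.0). Of the 15 leading genes 12 were above the CO level and 8 by 2-fold or more, beside 4.52% of 3051 genes higher to that extent and 12.6% lower, but they were chosen for high counts in cluster 12 and nothing is read from this. In the other DES epithelial clusters together 9 of the 15 were above the CO level.

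Prap1, at 7074 in CO cells with one cluster at 57405, Sprr2a3 at 1067 and Arhgdib at 98.1 were above cluster 12. Cd74 in CO cells (28.8 CPM), H2-Aa (3.48) and H2-Ab1 (7.30) were near the levels of cluster 12, and 9, 5 and 12 of the 15 CO clusters lay below it in H2-Aa, H2-Ab1 and Cd74. RP23-369M17.1 was at 203 in CO cells and at no less than 122 in any CO cluster, far above the 4.81 of cluster 12. Plac8 (1432), Cp (285), Cyr61 (396) and Fos (1133) were likewise above cluster 12 in every CO cluster.

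The sections were not used to form the clusters, and the named genes were tested there for a different contrast, DES against CO. The test was edgeR's quasi-likelihood test on UMIs summed over all spots, with Benjamini-Hochberg adjustment over 14098 genes. These sums cover all tissue in a section, so how the cluster studied here differs from other DES epithelial cells was not tested by them. In such sums fewer cells of a type and less RNA per cell cannot be told apart, and no exact test of 2 sections against 2 can give a p below 0.333. Of all genes 2.67% were called higher and 2.63% lower in DES (5.30% either way). A set of 105 genes was counted: the 25 leading and lowest genes, the 2 highest and 2 lowest of each list above the minimum, and Epcam. Other genes mentioned in the text, such as Foxa2 and Upk3b, are outside it. Of the 105, 10 were higher and 4 lower, and 37 had an unadjusted p under 0.05 (35.2%, beside 24.4% of all genes tested).

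Among the leading genes 4 of 15 were higher. Hopx was at 4.96 and 10.6 CPM in the CO sections and 59.7 and 61.6 in the DES sections (log2 fold change 2.77 ± 0.37 SE, adjusted p = 0.0304). Lypd2 was at 4.64 and 1.45 against 141 and 58.0 (4.78 ± 0.72, adjusted p = 0.0356). Tmem45b was at 169 and 151 against 375 and 457 (1.17 ± 0.21, adjusted p = 0.0471) and Arhgdib at 35.9 and 34.3 against 92.1 and 87.7 (1.15 ± 0.16, adjusted p = 0.0308). In these 4 genes both DES sections were above both CO sections.

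Markers of other cell types also differed between the same sections. All 5 muscle markers were lower in DES, with a summed level of 13344 and 14168 CPM in the CO sections and 3077 and 3458 in the DES sections, and 3 of 9 stromal markers were lower (6282 and 7873 against 4369 and 2839). Of the immune lists, 1 of 3 plasma cell markers was higher (summed level 225 and 474 against 3250 and 6098 CPM), 1 of 5 tested lymphocyte markers (6.96 and 9.52 against 19.5 and 36.1) and 1 of 7 myeloid markers (428 and 830 against 2339 and 1357). Of 4 pericyte markers 1 was higher and 2 were lower (212 and 283 against 177 and 148). Of 4 tested mesothelial markers 1 was higher (36.2 and 50.8 against 42.9 and 49.2). None of 3 basal markers passed the test, at summed levels of 3.36 and 160 against 9526 and 5644 CPM. Arhgdib was at 594 CPM in the DES lymphocytes and 206 in the DES myeloid cells of the single-cell library, and Hopx at 126 and 28.8. The part of these cell types in the section results was not tested.

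Fuom, another of the leading genes, was lower in DES sections, at 307 and 440 in CO against 162 and 173 (log2 fold change -1.36 ± 0.23 SE, adjusted p = 0.0435).

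Psca, Krt5 and Serpinb7 had higher levels in both DES sections than in both CO sections but did not pass the test. Psca was at 4.88 and 0.0906 CPM in CO and 29.4 and 49.7 in DES (adjusted p = 0.140). Krt5 was at 0.800 and 93.4 CPM in CO and 5276 and 3562 in DES (adjusted p = 0.142), and the CO sections lay far apart. Basal cells, which carry Krt5, are part of the sums. Serpinb7 was at 32.8 and 7.07 against 431 and 441 (adjusted p = 0.0522). Upk3bl was at 22.3 and 121 against 116 and 113 (adjusted p = 0.748), and the groups overlapped.

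Of the 10 genes lowest in cluster 12, Cp and Cfi were lower in DES sections and Olfm4 was higher. Cfi was at 70.2 and 50.8 CPM in CO against 11.7 and 11.1 in DES (log2 fold change -2.62 ± 0.24 SE, adjusted p = 0.0210), and Cp at 95.2 and 55.5 against 19.0 and 18.8 (-2.21 ± 0.32, adjusted p = 0.0333). Olfm4 was at 0.400 and 2.18 against 1534 and 1340 (9.94 ± 0.77, adjusted p = 0.0183). The paper uses Olfm4 as a marker of the cancer regions, and the DES sections had been checked for adenocarcinoma. The part of that choice in the Olfm4 result was not tested. Cd74 was at 170 and 273 against 872 and 2317 (adjusted p = 0.0688) and H2-Aa at 59.6 and 102 against 336 and 651 (adjusted p = 0.0536), without passing the test, although the groups did not overlap. The sums include immune cells, and DES myeloid cells of the droplet library had 5354 CPM of Cd74.

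Of the list genes among the 105, Il33, Gsta4, Sprr1a, Wnt4 and Fzd10, a Wnt receptor, were higher in DES sections. Their log2 fold changes were 3.40, 3.58, 3.31, 1.93 and 1.92 (adjusted p from 0.0141 to 0.0284). List members outside the 105 are not counted here, and some of them passed the test too, such as the muscle markers. Dcn, the matrix proteoglycan decorin, was lower by the same test (-1.84). RP23-369M17.1 was at 15.3 and 158 in the CO sections and 10.97 and 13.4 in the DES sections (adjusted p = 0.178), so that 1 CO section was near the DES sections. Without DES section 1 or DES section 2 edgeR called 0 of the 105 genes (33 and 29 had an unadjusted p under 0.05, 31.4% and 27.6%, beside 11.7% and 11.6% of all genes), and without CO section 1 or CO section 2 it called 37 and 39. DESeq2 on all sections called 30.

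**Figure D5:**
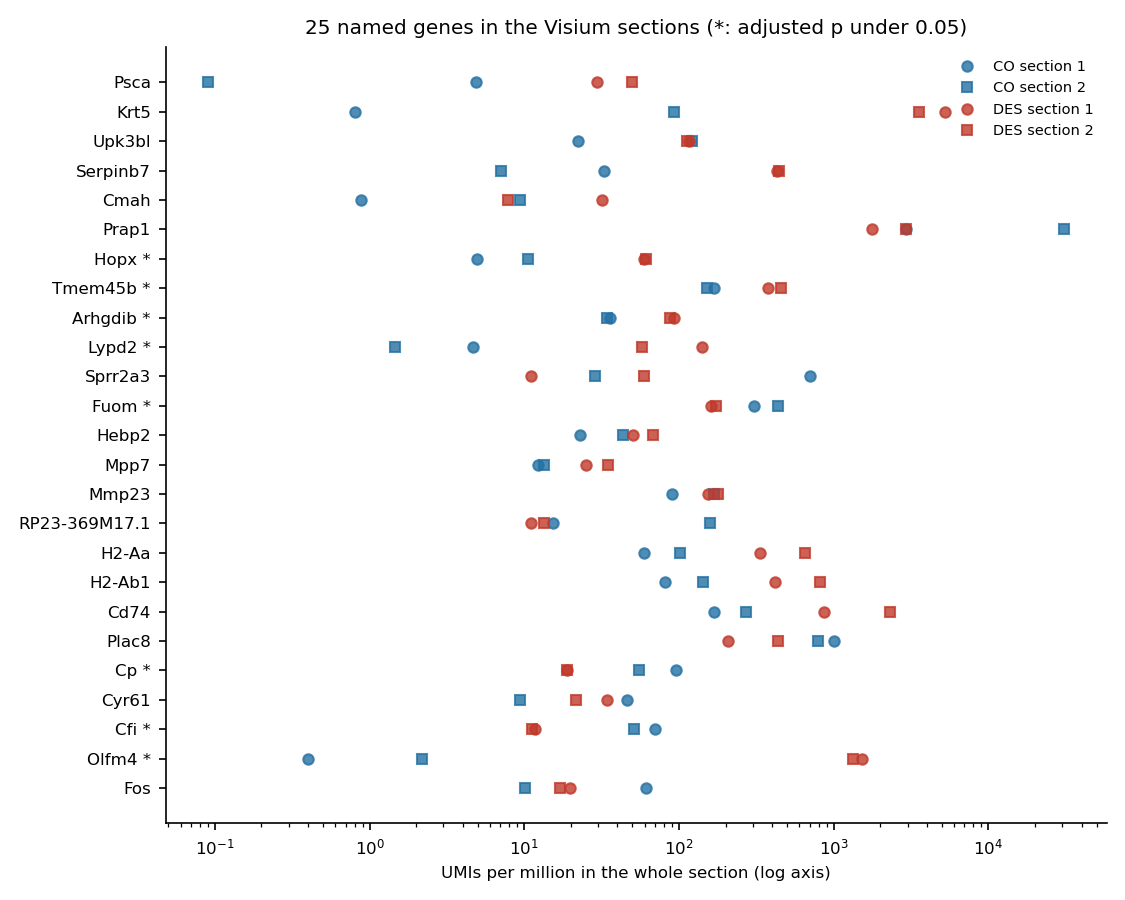
CPM (x axis, log scale) of the 25 named genes (y axis) in the whole CO (blue) and DES (red) Visium sections, one point per section, with an asterisk where edgeR's adjusted p was under 0.05. Hopx at 4.96 and 10.6 against 59.7 and 61.6, and Cfi at 70.2 and 50.8 against 11.7 and 11.1, are separated, and the CO sections lie far apart in Krt5 at 0.800 and 93.4.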

How the data were processed

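The deposited values are UMI counts without normalization, made by the authors with Cell Ranger 3.0.1 (cells) and Space Ranger 1.2.2 (sections) on mm10, per the submitters' processing notes. Per the methods, the authors removed doublets before clustering, and clusters and cell types are theirs. The members and gene lists were chosen with earlier results of these data known.

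Levels are a gene's UMIs in all cells of a group together, per 1000000 UMIs of that group (CPM), with exact Poisson 95% intervals and exact conditional intervals for ratios. The genes named were the 15 largest and 10 smallest ratios at 50 CPM or more, the 2 highest and 2 lowest of each list, and Epcam. Shares of cells were taken at 3000 UMIs per cell, which left out 49 of the other DES epithelial cells and no cell of cluster 12. A gene without UMIs was given 3 over the group. Scrublet was run in scanpy on all 16312 DES cells, of which it marked 3.92%.

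Sections held 9117099 to 12506177 UMIs in 1357 to 1834 spots. They were fitted with edgeR 4.0.16 (TMM, filterByExpr, adjusted p under 0.05), which was tested on simulated data with known changes, as were the ratios. DESeq2 1.42.0 was an alternative. The p-values measure the spread between sections from single mice. Gene positions came from GENCODE M21 (GRCm38, the same assembly as mm10), in which 23 of the 25 leading and lowest genes were matched.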

Additional observations from a re-analysis of the deposited data

How the results depend on the processing

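The genes at 2-fold or more, 5 higher and 41 lower, became 13 and 18 against the median of the other 15 clusters, 12 and 89 with a minimum of 20 CPM, and 3 and 6 with a minimum of 200 CPM, where the minimum itself sets how many genes are compared. Under the other alternatives for these counts, including 2 chosen after seeing the data (without cluster 9, and without clusters 2, 7, 9 and 15), the counts stayed within 1.5 times. All 25 leading and lowest genes kept their side of 1 under every alternative for the ratios and for the shares. They were chosen as the extremes of these same counts, so that outcome was close to fixed. Their sizes were less stable, with 40 of 175 log2 ratios and 38 of 50 shares of cells marked as moved from the main setting. In the sections 14 named genes were called by edgeR and 30 by DESeq2, and leaving out 1 section in turn gave 0 to 39, with 0 for each DES section and 37 and 39 for the CO sections, the cause of which was not tested. With the section number as a replicate block 15 were called (13 higher and 2 lower), and 527 of all genes against 747, but the sections share only a number: the deviations of like-numbered sections correlated at -0.03 over 14098 genes. The log2 fold changes of Cyr61 and Hif1a, -0.232 and -0.135 with all sections, turned to a higher level in DES without CO section 1 and with the block (0.136 and 0.007), that of Cyr61 also without DES section 2 (0.008), and they ranged from -0.973 to 1.37 and from -0.649 to 0.665 over the sections left out. With 1 section in a group, that section is assumed to vary like the other group. Depth limits genes of few UMIs in 136 cells, and 1 DES library leaves no replicate of the cluster.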
